A study of Mus musculus with 24 samples.

Results

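The genes described here encode receptors that place B-cell progenitors in the bone marrow and let mature B cells travel, with 1 transcription factor that acts on them: Cxcr4, Cxcr5, Ccr7, S1pr1, Klf2 and Itga4. They were chosen by name, with earlier results of these data known. Each was described by the chromatin accessibility peaks in its mm10 gene body and 10 kb on both sides. This window set held 59 of the 159326 joined regions of the series, and the 6 genes stood among 21631 protein-coding genes on chromosomes 1 to 19 and X. Accessibility was measured by ATAC-seq, in which a transposase inserts adapters into open DNA, on bone marrow progenitors of the B lineage, sorted from Mki67-/- and WT mice. The groups were Mki67-/- and WT pre-pro-B, Mki67-/- and WT pro-B, and Mki67-/- and WT small pre-B cells, with 4 libraries in each of the 6 groups. The product of Mki67, Ki-67, is found in the nuclei of cells that divide. The labels give no strain, age, sex or treatment, and neither the deleted part of Mki67 nor whether libraries of a group came from separate mice. P-values therefore measure the spread between libraries, which may in part be technical.

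B-cell development in the marrow begins with pre-pro-B cells, which give rise to pro-B and then pre-B cells, and cells move between stromal niches as they mature. CXCR4 binds the chemokine CXCL12 of marrow stroma and holds progenitors there. Integrin alpha 4, the product of Itga4, pairs with a beta chain and binds VCAM1 and fibronectin. CXCR5 and CCR7 guide mature B cells into follicles and towards T zones of lymph nodes and spleen, and S1PR1 senses sphingosine 1-phosphate and directs exit into blood. KLF2 is a zinc finger factor that activates S1pr1 in lymphocytes.

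Each library had its own deposited peak list, with 77044 to 206148 entries, or 54387 to 88946 peaks once overlapping entries were merged. Merged peaks averaged 80504 ± 9103 in Mki67-/- and 84682 ± 5256 in WT pre-pro-B libraries, and 74484 ± 2682 in Mki67-/- and 74698 ± 3669 in WT pro-B libraries (SD, n = 4 each). They averaged 65298 ± 7900 in Mki67-/- and 70569 ± 10503 in WT small pre-B libraries (SD, n = 4 each). Since the lists shorten from stage to stage, stages were compared on the 40000 strongest peaks per library, those of highest −log10 q (the peak caller's measure of how clearly a peak stands above background). Genotypes were compared on the deposited lists. Read depth was not used here. The labelled stages were checked against marker lists. Windows of 11 B-lineage genes held 26 to 33 of the 40000 strongest peaks in a pre-pro-B library, 69 to 75 in a pro-B and 56 to 68 in a small pre-B library. Windows of 9 T and NK cell genes held 20 to 25 peaks in pre-pro-B, 11 to 14 in pro-B and 8 to 11 in small pre-B libraries. Each of the 9 had a peak in at least 1 pre-pro-B library, with Bcl11b at 0 to 3 peaks in a library. Cd3e, Cd8a and Ncr1 were at 0 at both later stages. Klrb1c went the other way, with 1.88, 3.13 and 2.63 peaks on average by stage. Stem cell and progenitor genes held 26 to 33, 20 to 25 and 15 to 19 peaks. Among them Hlf, Procr and Gata2 rose at pro-B, to 2.75, 1.88 and 1.88 peaks on average, against 1.25, 0.75 and 1.0 at pre-pro-B. These other-lineage windows also differed between stages, and the part of such cells in the members' stage differences was not tested. In sorted bulk cells, fewer cells of a type and less open chromatin per cell cannot be told apart. The Mki67 window had a peak in 24 of 24 libraries, so peaks do not check the genotype labels.

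Promoters are shown for the 3 of 6 genes that RefSeq's table for GRCm38.p6 holds, because the peak over each of these starts was found in all 24 libraries and ranked within the 9179 strongest peaks of each library. Each runs 5′ to 3′ on the gene's own strand, 250 bases before the start and 50 after it. Capitals mark TATAAA, the GC box GGGCGG and, in Klf2, a MEF2 motif (CTA, any 4 bases, TAG), searched on both strands. The positions are chr1:128592250-128592549 on the minus strand for Cxcr4, chr8:72318812-72319111 on the plus strand for Klf2 and chr2:79255176-79255475 on the plus strand for Itga4.
Cxcr4: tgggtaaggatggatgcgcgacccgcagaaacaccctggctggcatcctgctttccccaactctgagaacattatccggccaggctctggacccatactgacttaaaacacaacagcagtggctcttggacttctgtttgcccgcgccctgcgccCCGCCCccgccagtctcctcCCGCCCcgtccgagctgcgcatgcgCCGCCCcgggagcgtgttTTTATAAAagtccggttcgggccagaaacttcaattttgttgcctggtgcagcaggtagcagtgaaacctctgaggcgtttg
Klf2: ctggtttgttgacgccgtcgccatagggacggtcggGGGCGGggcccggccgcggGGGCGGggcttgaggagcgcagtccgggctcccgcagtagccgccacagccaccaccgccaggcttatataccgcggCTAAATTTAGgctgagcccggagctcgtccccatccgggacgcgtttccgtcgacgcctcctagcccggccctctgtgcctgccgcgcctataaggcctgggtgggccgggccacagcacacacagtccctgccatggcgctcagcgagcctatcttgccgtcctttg
Itga4: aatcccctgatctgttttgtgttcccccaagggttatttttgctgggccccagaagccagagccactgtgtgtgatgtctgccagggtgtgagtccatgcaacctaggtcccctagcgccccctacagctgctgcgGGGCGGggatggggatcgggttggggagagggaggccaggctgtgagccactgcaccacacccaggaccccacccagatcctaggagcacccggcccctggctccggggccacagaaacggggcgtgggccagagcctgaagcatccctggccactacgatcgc

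The Cxcr4 promoter held 2 overlapping TATAAA matches, which lie on opposite strands and begin 32 and 30 bases before the start, and 3 GC boxes. TATAAA occurs in 13.6% and the GC box in 35.7% of the 32851 promoters of the table. The Klf2 promoter held 2 GC boxes, no TATAAA and a MEF2 motif that begins 118 bases before the start. The MEF2 motif occurs in 3.69% of all promoters. The Itga4 promoter held 1 GC box and none of the other marked motifs. Its GC content was 64.3%, against 59.3% for Cxcr4, 69.3% for Klf2 and a median of 52.7% over all promoters. Other letters searched on both strands were CACCC (in 57.5% of all promoters), TGTGGT (16.8%), CCGGAA (14.9%), CCCNNGGG (13.7%) and TGTTTAC (3.65%), and the SRF motif (1.63%). Of these, CACCC was found in all 3 promoters, with 4 matches in Itga4, and TGTGGT and CCCNNGGG were found once each, in Itga4. A match is a description of letters and no evidence of binding.

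Peaks that overlapped between libraries were treated as 1 region, and the 46 of the 59 regions with a peak in at least 4 libraries are numbered along each gene from its lower coordinate. The other 13 regions had a peak in fewer libraries. Of the 46 regions, 15 had a peak in at least 4 of the 8 libraries of every stage, 13 at pre-pro-B alone, 4 at pro-B alone and 6 at small pre-B alone, counted in the deposited lists. A peak was present in all 24 libraries at 11 regions. The annotation used here gives gene limits without exons, so positions are given as distances from the ends of a gene.

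**Figure D1:**
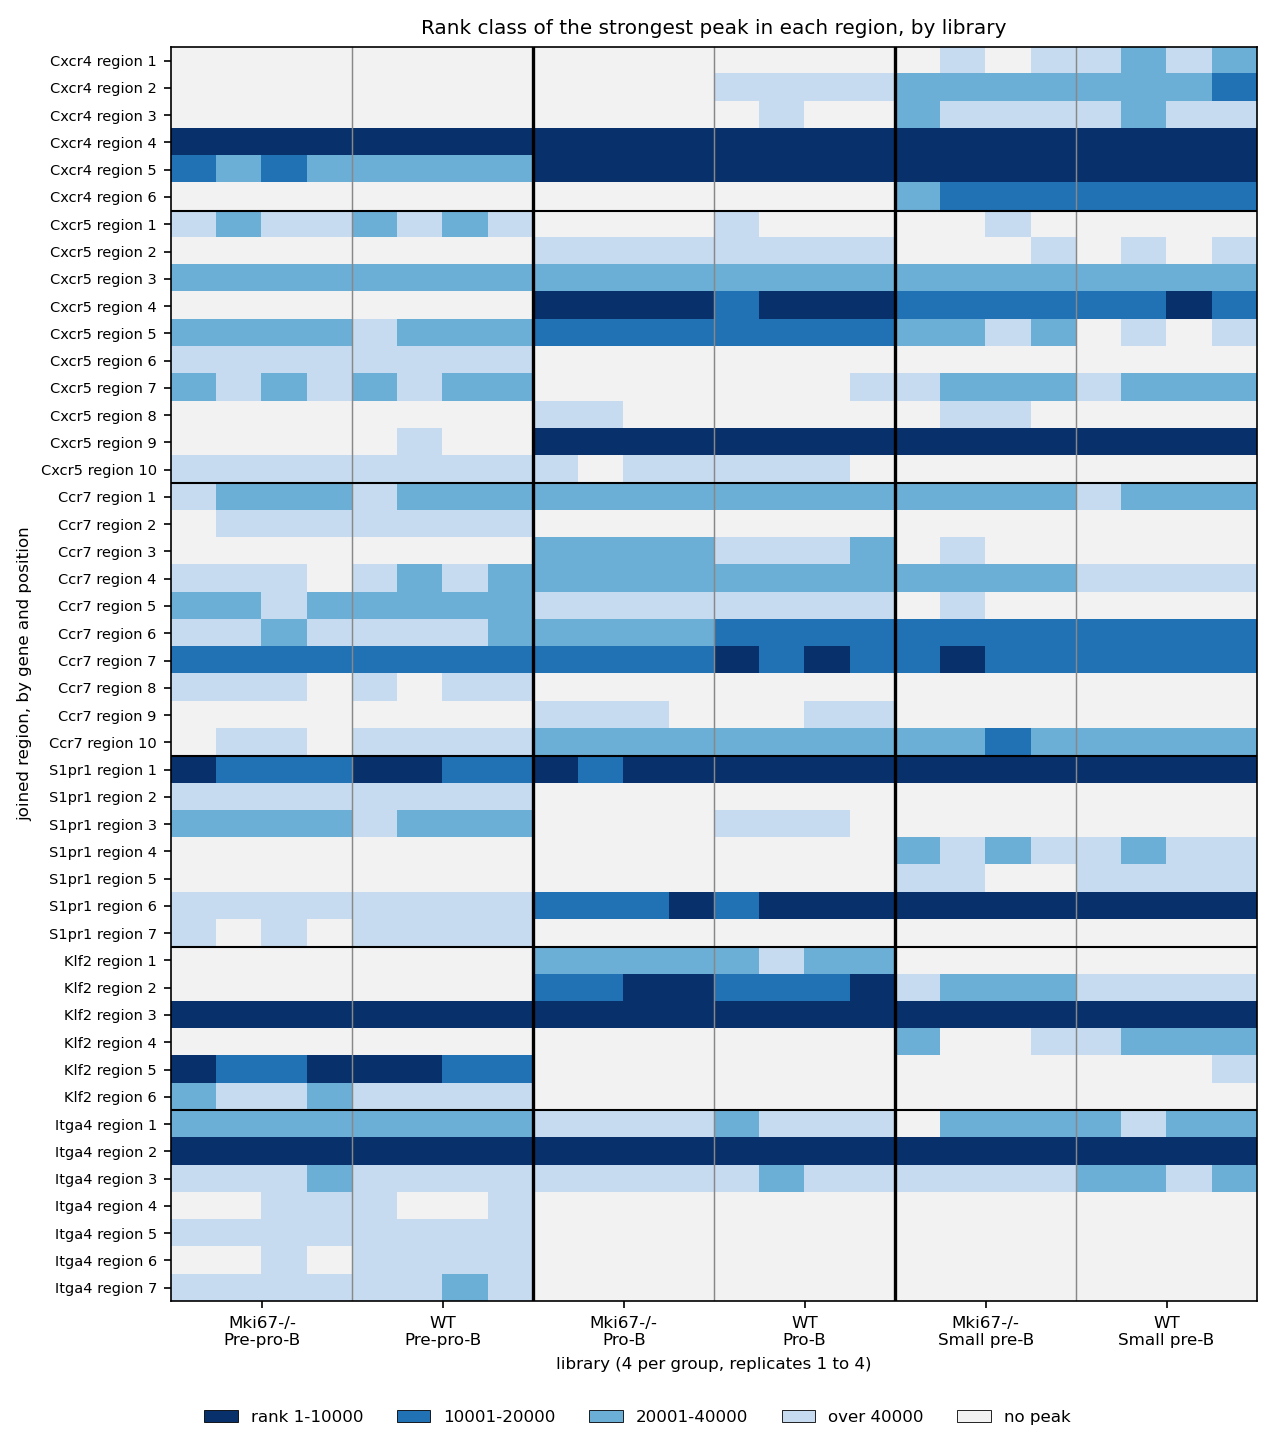
Rank class of the strongest peak of each member region (rows) in each of the 24 libraries (columns, 4 per group), where rank 1 is the highest −log10 q of a library. Darker cells are stronger peaks and the palest cells have no deposited peak. Most changes run between the stage blocks, with Mki67-/- and WT columns of a stage alike in most rows.

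Cxcr4, on chr1:128588199-128592299, had a strong peak at its start in every library, and regions on both sides that differed by stage. Its region 4, chr1:128590719-128593322, covers the start and ranked between 2984 and 9179 in every library. Region 5, chr1:128601313-128601804, has its midpoint 9259 bp upstream of the start and had a peak in all 24 libraries. At pre-pro-B it ranked 18195, 21883, 19951 and 32612 in Mki67-/- libraries and 28134, 24387, 34346 and 29692 in WT libraries. At pro-B the ranks were 2956, 3386, 5236 and 4650 in Mki67-/- libraries and 4847, 5036, 4529 and 4077 in WT libraries. At small pre-B they were 8797, 5197, 5964 and 6011 in Mki67-/- libraries and 6976, 5921, 6390 and 7496 in WT libraries. All pro-B libraries thus ranked this region above all pre-pro-B libraries, and the 2 genotypes overlapped at each stage. Its median rank was 4590 at pro-B and 6200 at small pre-B. Region 6, chr1:128602053-128602855, straddles the edge of the window and was found at small pre-B alone, in 8 of 8 libraries, with ranks of 11849 to 23954 around a median of 16090. Region 2, chr1:128583155-128583701, lies 4497 bp below the gene, downstream of it. It was among the 40000 strongest peaks in 8 of 8 small pre-B and 0 of 8 pro-B libraries.

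Presence among the 40000 strongest peaks was tested for every region by an exact permutation test of stage within genotype, with Benjamini-Hochberg adjustment over all regions tested. Between small pre-B and pro-B cells, 11 member regions could be tested, and 3 were found more often and 5 less often at small pre-B. Over all 19216 regions tested, 30.4% were found more often and 39.6% less often. The 2 Cxcr4 regions passed, regions 2 and 6, each with an adjusted p of 0.00175 and 8 of 8 small pre-B libraries. In the deposited lists the region 2 call was lost, with a difference in share of 0.5 and an adjusted p of 0.0506, since 4 WT pro-B libraries held a weaker peak there. Between pro-B and pre-pro-B cells, 14 member regions could be tested, and 9 were found more often and 5 less often at pro-B. The shares over all 32100 regions tested were 39.4% and 44.1%. In the deposited lists the balance differed at both steps. There 8 member regions were found more often and 13 less often at pro-B than at pre-pro-B, and 7 more often and 4 less often at small pre-B than at pro-B. The shares over all regions in the deposited lists are not given here, and these lists differ in length between stages. This balance is therefore not read as a result about the members.

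Cxcr5, on chr9:44511787-44526444, gained strong peaks at both ends of the gene between pre-pro-B and pro-B. Bcl9l overlaps its lower end by 120 bp, so peaks there may belong to either gene. Region 9, chr9:44526266-44526894, covers the higher end. Its pre-pro-B libraries held no peak in 4 of 4 Mki67-/- libraries and a peak of rank 75944 in 1 of 4 WT libraries. At pro-B it ranked 9688, 6925, 9551 and 8908 in Mki67-/- libraries and 8301, 7360, 6767 and 8873 in WT libraries. At small pre-B the ranks were 1813, 3552, 2789 and 4059 in Mki67-/- libraries and 4384, 3790, 2359 and 3174 in WT libraries. The ranks of the 3 stages did not overlap, and each stage placed the region higher than the one before it. Region 4, chr9:44511942-44512445, lies 407 bp inside the lower end. It had no deposited peak at pre-pro-B, ranked 8372 to 12017 at pro-B and 8004 to 16778 at small pre-B, and passed the pro-B test with region 9 (adjusted p = 0.000825 for each, exact permutation test). Region 5, chr9:44515094-44516259, in the gene body, was strongest at pro-B. Its median rank was 32140 at pre-pro-B, 12880 at pro-B and 37680 at small pre-B, and it was among the 40000 strongest in 3 of 8 small pre-B against 8 of 8 pro-B libraries (adjusted p = 0.0245, exact permutation test). Region 7, also in the gene body, was found in 5 of 8 pre-pro-B, 0 of 8 pro-B and 6 of 8 small pre-B libraries at this list length. It passed both tests (adjusted p = 0.0198 between small pre-B and pro-B, 0.0367 between pro-B and pre-pro-B, exact permutation tests).

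Ccr7, on chr11:99144199-99155077, held 10 numbered regions and had a peak at its higher end in all 24 libraries. This region 7, chr11:99154002-99155654, ranked 13949 to 19135 at pre-pro-B, 9779 to 11851 at pro-B and 9989 to 13641 at small pre-B. Region 6, chr11:99149936-99150705, lies in the gene body. It ranked 51084, 40376, 37006 and 44401 in Mki67-/- and 53694, 47185, 41522 and 33175 in WT pre-pro-B libraries. At pro-B it ranked 24992, 27690, 23042 and 21426 in Mki67-/- libraries and 17045, 17162, 17608 and 18602 in WT libraries. At small pre-B it ranked 13893 to 17653 in Mki67-/- and 14383 to 17808 in WT libraries. This region was thus weak in every pre-pro-B library and stronger in every later library, and at pro-B it was weaker in each Mki67-/- than in each WT library. Region 10, chr11:99162665-99163451, has its midpoint 7980 bp above the gene and was among the 40000 strongest in 8 of 8 pro-B and 0 of 8 pre-pro-B libraries. Regions 3, 4, 6 and 10 rose in presence among the 40000 strongest at pro-B (adjusted p of 0.019, 0.00903, 0.0141 and 0.000825, exact permutation tests). At pre-pro-B, regions 4, 6 and 10 had deposited peaks in 7, 8 and 6 of 8 libraries, and region 3 in 0 of 8. Region 5, chr11:99147165-99148476, fell in presence among the 40000 strongest, to 0 of 8 pro-B against 7 of 8 pre-pro-B libraries (adjusted p = 0.00328, exact permutation test). It kept a deposited peak in 8 of 8 pro-B libraries, with ranks of 42396 to 75316. At small pre-B, regions 3 and 4 fell in presence among the 40000 strongest, to 0 of 8 and 4 of 8 libraries, against 5 of 8 and 8 of 8 at pro-B (adjusted p of 0.0245 and 0.0437, exact permutation tests). Deposited peaks were held by 1 and 8 of 8 small pre-B libraries. The region 4 difference among the 40000 strongest lay in WT libraries. Mki67-/- had 4 of 4 libraries at both stages, and WT had 0 of 4 at small pre-B against 4 of 4 at pro-B. Its call was lost when peaks had to cover 0.5 of the region (adjusted p = 0.16, exact permutation test), and it was absent in too few libraries to be tested once a WT small pre-B library was left out.

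S1pr1, on chr3:115710433-115715055, had a peak at its higher end that ranked higher at pro-B than at pre-pro-B, and a gene-body peak that weakened. Region 6, chr3:115714498-115715656, covers that end and had a deposited peak in all 24 libraries. It ranked 70170, 57757, 66841 and 47647 in Mki67-/- and 57446, 72472, 65981 and 51133 in WT pre-pro-B libraries. It ranked 10347, 10769, 11231 and 9903 in Mki67-/- and 12431, 8945, 9124 and 9860 in WT pro-B libraries. At small pre-B it ranked 8807, 8090, 9456 and 7759 in Mki67-/- and 6963, 5532, 7179 and 6415 in WT libraries. No pre-pro-B library placed it among the 40000 strongest and every later library did (adjusted p = 0.000825 between pro-B and pre-pro-B, exact permutation test). Region 3, chr3:115711981-115713101, in the gene body, was among the 40000 strongest in 0 of 8 pro-B against 7 of 8 pre-pro-B libraries (adjusted p = 0.00328, exact permutation test). At pro-B it had a deposited peak in 3 of 4 WT libraries, with ranks of 45893 to 57475, and in 0 of 4 Mki67-/- libraries. Regions 4 and 5, closer to the higher end, had deposited peaks at small pre-B alone, in 8 and 6 of 8 libraries, and 3 and 0 of these were among the 40000 strongest. Region 1, chr3:115701881-115702730, lies 7702 bp below the gene and was strong throughout, with median ranks of 10700 at pre-pro-B, 8556 at pro-B and 2854 at small pre-B.

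Klf2, on chr8:72319062-72321654, had the highest-ranked start of the 6 genes and changed on both sides of it. Region 3, chr8:72318594-72319747, covers the start and ranked 1852 to 5950 at pre-pro-B, 101 to 572 at pro-B and 109 to 438 at small pre-B. Every later library thus ranked the Klf2 start above every pre-pro-B library. Region 5, chr8:72321645-72322883, covers the end of the gene and was found in 8 of 8 pre-pro-B libraries. It ranked 9220, 11353, 10755 and 9813 in Mki67-/- and 9996, 6470, 11298 and 12526 in WT pre-pro-B libraries. It had no deposited peak in any pro-B library, and a peak of rank 58521 in 1 of 8 small pre-B libraries. Its presence fell at pro-B with an adjusted p of 0.000825 (exact permutation test). Region 2, chr8:72310832-72311469, lies 7592 bp upstream of the gene and had no deposited peak at pre-pro-B. It ranked 13484, 11969, 9553 and 8773 in Mki67-/- and 13005, 13841, 11872 and 8824 in WT pro-B libraries. At small pre-B it ranked 43488, 23490, 25523 and 26499 in Mki67-/- and 74548, 59744, 49433 and 40055 in WT libraries. The region was thus strongest at pro-B, and at small pre-B 3 of 4 Mki67-/- and 0 of 4 WT libraries placed it among the 40000 strongest, with 1 WT library just outside at 40055. Region 4, in the gene body, was among the 40000 strongest in 4 of 8 small pre-B and 0 of 8 pro-B libraries (adjusted p = 0.0917), and passed in 4 of the tests that omitted a library (adjusted p of 0.0218 to 0.0404, exact permutation tests). Region 1, chr8:72310381-72310703, next to region 2, was found at pro-B alone, in 8 of 8 libraries. Regions 1 and 2 passed at both steps, found more often at pro-B than at pre-pro-B (adjusted p of 0.00328 and 0.000825) and less often at small pre-B than at pro-B (adjusted p of 0.00538 and 0.0245, exact permutation tests).

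Itga4, on chr2:79255426-79333114, was strong at its start at every stage and otherwise held few strong peaks over its 77689 bp. Cerkl overlaps its higher end by 624 bp. Region 2, chr2:79254596-79256557, covers the start and ranked 2307 to 6848 at pre-pro-B, 1715 to 3389 at pro-B and 1777 to 3567 at small pre-B. Region 1, chr2:79248101-79248874, lies 6551 bp upstream of the gene. It ranked 24832, 25377, 22182 and 39074 in Mki67-/- and 24263, 28803, 21429 and 24045 in WT pre-pro-B libraries. It ranked 43488, 51455, 51331 and 54918 in Mki67-/- and 37775, 56011, 46241 and 48234 in WT pro-B libraries. At small pre-B, 1 Mki67-/- library had no peak, the other Mki67-/- libraries ranked it 32446 to 39274, and WT libraries ranked it 35482 to 54146. The upstream region was thus weakest at pro-B, where 1 of 8 libraries placed it among the 40000 strongest, against 8 of 8 at pre-pro-B (adjusted p = 0.00328, exact permutation test). The return to 6 of 8 libraries at small pre-B did not pass (adjusted p = 0.0657, exact permutation test), and it did when Mki67-/- small pre-B replicate 1, WT pro-B replicate 1 or WT small pre-B replicate 2 was left out, with adjusted p-values of 0.018 to 0.0232.

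Ranks were also compared as a description, by counting regions whose ranks within the 40000 strongest did not overlap between stages. At pro-B against pre-pro-B, 12 member regions ranked higher in every library and 1, Klf2 region 5, ranked lower in every library. Another 10 overlapped, and 23 had such a peak in too few libraries to be counted. Over all 54542 regions counted, 24.3% ranked higher and 27.3% ranked lower in this way. The 12 comprised 5 regions of Ccr7, 3 of Cxcr5, 2 of Klf2 and 1 each of Cxcr4 and S1pr1. At small pre-B against pro-B, 4 member regions ranked higher in every library and 2 ranked lower, against 17% and 18.6% of 46293 regions. Here 18 member regions overlapped and 22 were not counted. The 4 were Cxcr4 regions 2 and 6, Cxcr5 region 9 and S1pr1 region 1, and the 2 were Cxcr5 region 5 and Klf2 region 2.

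**Figure D2:**
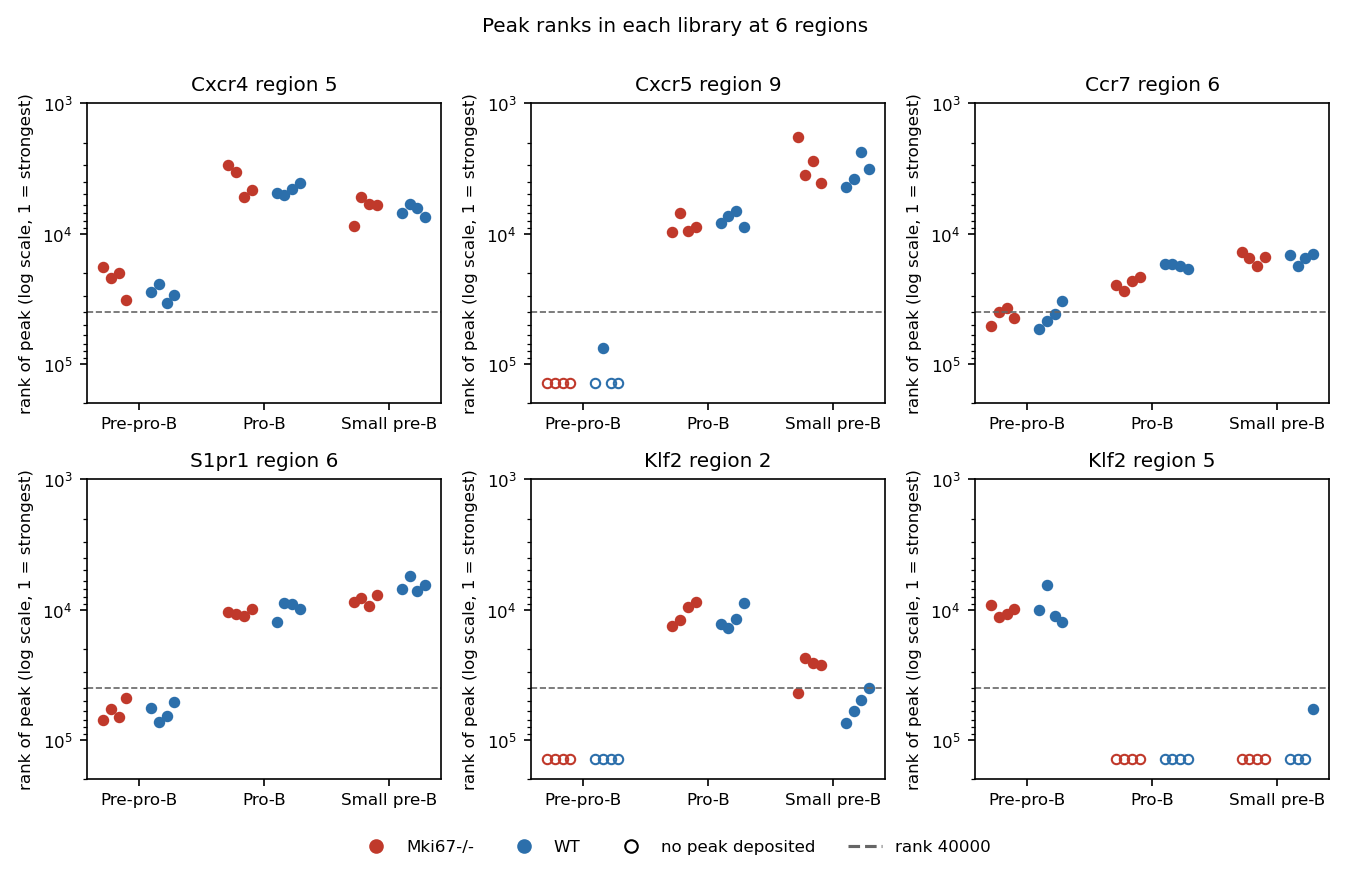
Rank of the peak at 6 member regions in each library, by stage and genotype, on a reversed log axis where 1 is the strongest peak. Filled points are libraries with a peak, open points at the foot are libraries with no deposited peak, and the dashed line is rank 40000. Cxcr5 region 9 and S1pr1 region 6 move above the line at pro-B, Klf2 region 5 leaves the lists, and Klf2 region 2 has ranks of 8773 to 13841 at pro-B.

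A few weak regions were seen at pre-pro-B alone in the deposited lists. Cxcr5 region 6, S1pr1 region 2, Klf2 region 6, and Itga4 regions 5 and 7 each had a peak in 8 of 8 pre-pro-B libraries and in none of the 16 later libraries. Their ranks lay between 36762 and 85946. They stood near or below the limit of the 40000 strongest peaks and so hardly entered the tests between stages. Pre-pro-B lists are also the longest. In Cxcr4 the reverse held, and regions 1 and 3, downstream of the gene, had deposited peaks in 6 and 8 of 8 small pre-B libraries, with none at pre-pro-B.

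Counted over the whole window, the number of peaks among the 40000 strongest moved in both directions. At pro-B, Ccr7 rose to 5.63 ± 0.518 peaks, against 3.13 ± 0.991 at pre-pro-B (SD, n = 8 each), with an adjusted p of 0.00553 (exact permutation test). Cxcr5 rose to 4.13 ± 0.354 peaks, against 2.88 ± 0.641 (adjusted p = 0.00587, exact permutation test). Itga4 fell to 1.25 ± 0.463 peaks, against 2.25 ± 0.463 (adjusted p = 0.0111, exact permutation test). Of 16218 genes tested, 24.8% rose and 21.1% fell, so 2 and 1 of 6 members are near the shares of all genes. Cxcr4 held 3.0 and 2.88 peaks, S1pr1 2.0 and 1.88, and Klf2 2.88 and 2.25 at pro-B and pre-pro-B, and none of these passed. The Cxcr5 and Ccr7 calls were lost in the deposited lists, with differences of −0.375 and 0.125 peaks, by covered length and with peaks of −log10 q under 5 removed, and the Ccr7 call also in the 20000 strongest (adjusted p = 0.0735, exact permutation test). By unmerged entries Cxcr5 was lower at pro-B, with a difference of −2.88 (adjusted p = 0.0205) and the Ccr7 difference of −2.63 did not pass (adjusted p = 0.0781, exact permutation tests). The Itga4 call was lost in the 20000 strongest and with windows of 2 and 50 kb. Klf2 passed when Mki67-/- pre-pro-B replicate 1 or 4 or WT pro-B replicate 2 was left out (adjusted p of 0.0152 to 0.0233, exact permutation tests).

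At small pre-B, Cxcr4 rose to 5.5 ± 0.756 peaks, against 3.0 ± 0 at pro-B (SD, n = 8 each), and Itga4 to 3.25 ± 0.463, against 1.25 ± 0.463 (adjusted p = 0.00467 for each, exact permutation test). With a 2 kb window the Cxcr4 difference was 0.0 peaks. Over 15744 genes, 11.4% rose and 11.9% fell. The Itga4 rise depends on how peaks are split. Its start region held 2 or 3 separate peaks in 8 of 8 small pre-B libraries and 1 in every pro-B and pre-pro-B library. Counted as joined regions, Itga4 rose by 0.875 with an adjusted p of 0.0522 (exact permutation test), and it also missed the threshold in the deposited lists (adjusted p = 0.163, exact permutation test). Klf2 held 2.0 ± 0.535 peaks at small pre-B and 2.88 ± 0.354 at pro-B, with an adjusted p of 0.0505 (exact permutation test). It passed in 15 of 16 tests with a library omitted (adjusted p from 0.0125 to 0.0495, exact permutation tests). Cxcr5 held 4.75 and 4.13, Ccr7 4.88 and 5.63 and S1pr1 2.5 and 2.0 peaks at small pre-B and pro-B, and these did not pass. In the deposited lists Ccr7 was lower at small pre-B, with a difference of −2.75 (adjusted p = 0.0106), and S1pr1 higher, with 0.875 (adjusted p = 0.0395, exact permutation tests). Both were also called, in these directions, with peaks of −log10 q under 5 removed, by covered length and by unmerged entries, Ccr7 also as joined regions and S1pr1 also with a 50 kb window. Cxcr5 was called lower in the 20000 strongest peaks (−1.0, adjusted p = 0.00408, exact permutation test) and by covered length. It passed as higher when WT small pre-B replicate 1 was left out (adjusted p = 0.0351, exact permutation test).

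Over both steps together, Cxcr4, Cxcr5, Ccr7 and Itga4 held more peaks at small pre-B than at pre-pro-B. Genes called over all 16051 tested were 24.2% higher and 21% lower. Of these, Itga4 and Ccr7 were called lower at small pre-B in the deposited lists. Cxcr5 had a difference of −0.75 in the deposited lists that did not pass (adjusted p = 0.28, exact permutation test). Its call was also lost by covered length and with peaks of −log10 q under 5 removed. By unmerged entries Cxcr5 was called lower (−3.13, adjusted p = 0.0199, exact permutation test). The Ccr7 call was lost when replicate 1, 3 or 4 of Mki67-/- small pre-B or replicate 1 of WT pre-pro-B was left out (adjusted p of 0.0579 to 0.0613, exact permutation tests). It was also lost with a 2 kb window and as joined regions, where the difference for Itga4 was −0.125, and the Cxcr4 call was lost with a 2 kb window, by covered length and by unmerged entries.

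**Figure D3:**
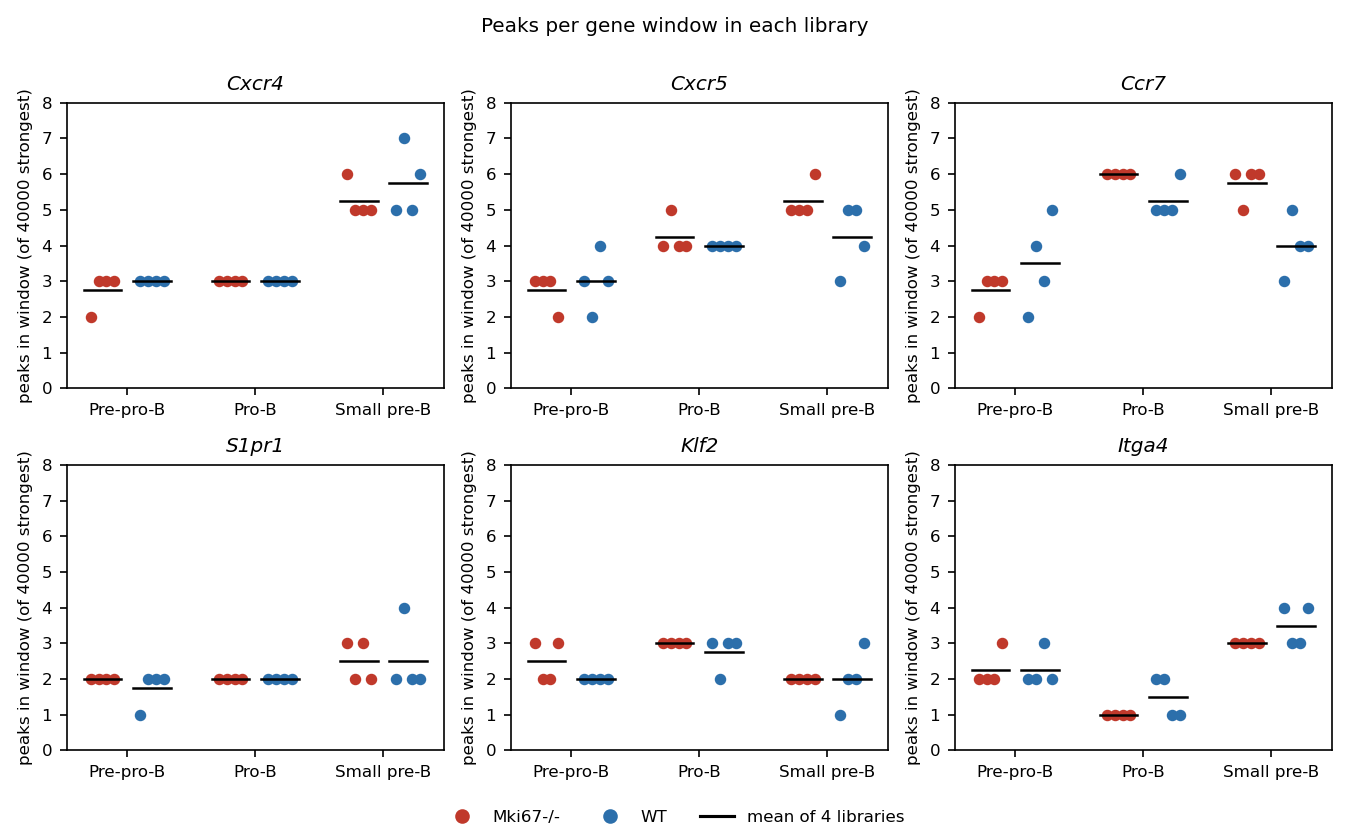
Peaks among the 40000 strongest in the window of each of the 6 genes, in each library (points), with Mki67-/- left of WT at each stage and a bar for the mean of 4 libraries. Cxcr4 libraries hold 2 or 3 peaks at pre-pro-B, 3 at pro-B and 5 to 7 at small pre-B. Itga4 libraries hold 1 or 2 at pro-B and 3 or 4 at small pre-B.

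Between Mki67-/- and WT cells, no member passed in the deposited lists across the 3 stages. An exact permutation test of genotype within stage with adjustment over 17598 genes called 0 genes higher (0%) and 0 lower (0%), with 893 genes at an unadjusted p under 0.05 and a smallest adjusted p of 0.41. The members' differences had a median of −0.375 peaks, against −0.0833 over all genes. The lowest member p was that of Cxcr4 (unadjusted p = 0.0983, exact permutation test). At pro-B, Cxcr4 held 3, 3, 3 and 3 deposited peaks in Mki67-/- libraries and 4, 5, 4 and 4 in WT libraries. The groups did not overlap at pro-B (unadjusted p = 0.0286, exact permutation test, the smallest that 4 against 4 libraries allow). The genotypes overlapped at the other stages, with 2 to 4 peaks in Mki67-/- and 3 in each WT pre-pro-B library, and 6 or 7 in Mki67-/- and 7 in each WT small pre-B library. Among the 40000 strongest peaks every pro-B library of either genotype held 3.

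The Cxcr4 difference at pro-B lay at region 2 downstream of the gene. That region had no deposited peak in 4 of 4 Mki67-/- pro-B libraries and a peak in 4 of 4 WT pro-B libraries, with ranks of 70714, 61968, 71340 and 49783. All of these are weak peaks below the 40000 strongest. Of the 46 regions it alone, at any stage, had deposited peaks in all libraries of either genotype and none of the other. At pro-B, 1.39% of 37891 regions had that pattern, and the shares were 0.513% of 51260 regions at pre-pro-B and 1.42% of 55732 at small pre-B. In shorter lists other member regions split by genotype. Among the 40000 strongest, Ccr7 region 4 had 4 of 4 Mki67-/- and 0 of 4 WT small pre-B libraries. Among the 20000 strongest, Ccr7 region 6 had 0 of 4 Mki67-/- and 4 of 4 WT pro-B libraries. The shares over all regions in these shorter lists are not given here, so neither is read as a result about the members. At small pre-B Cxcr4 region 2 had a peak in 8 of 8 libraries, with ranks of 21610 to 26365 in Mki67-/- and 17343 to 26382 in WT libraries. Across stages the region had an unadjusted p of 0.0286 and an adjusted p of 1.0 (exact permutation test). Of 73248 regions tested across stages, 0 were called more often (0%) and 0 less often (0%) in Mki67-/- libraries, and 1978 had an unadjusted p under 0.05. No member region passed among the 31 tested.

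Strength by genotype was described by ranks, where each of the 8 libraries of a stage had a peak. At pre-pro-B, 0 of 24 member regions ranked higher and 1 ranked lower in every Mki67-/- library than in every WT library, against 1.83% and 1.96% of 53951 regions. At pro-B, 2 of 22 ranked higher and 1 ranked lower, against 7.28% and 7.44% of 50020 regions. At small pre-B, 2 of 21 ranked higher and 1 ranked lower, against 7.96% and 6.34% of 40708 regions. The members' counts lay near these shares. The stronger regions at pro-B were the Itga4 start, with ranks of 1715 to 2946 in Mki67-/- and 3092 to 3389 in WT libraries, and Klf2 region 1, with 25658 to 31566 in Mki67-/- and 32779 to 46539 in WT libraries. Ccr7 region 6 was weaker, as given above. At small pre-B, Ccr7 region 4 ranked 26712 to 34382 in Mki67-/- and 41412 to 69827 in WT libraries, and the higher end of Ccr7 ranked 9989 to 11324 in Mki67-/- and 12181 to 13641 in WT libraries. The higher end of S1pr1 ranked 7759 to 9456 in Mki67-/- and 5532 to 7179 in WT small pre-B libraries. The weaker pre-pro-B region was S1pr1 region 2, with 59205 to 66415 in Mki67-/- and 47737 to 55689 in WT libraries.

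Whether the genotype difference changed between stages was tested as well. Over 17492 genes between pro-B and pre-pro-B, 17093 between small pre-B and pro-B and 17320 between small pre-B and pre-pro-B, 0 genes passed (0% each), with 399, 424 and 342 at an unadjusted p under 0.05 (exact permutation tests). Cxcr5 had the lowest p of the members, with 7, 7, 8 and 8 deposited peaks in Mki67-/- and 5, 7, 5 and 6 in WT small pre-B libraries, and 7, 7, 7 and 8 in Mki67-/- and 7, 8, 8 and 7 in WT pre-pro-B libraries. The groups overlapped at both stages, and the difference between these stages had an unadjusted p of 0.0531 (exact permutation test).

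Other genes of the homing system were counted in lists by role, and 112 of their 113 entries matched the reference. Their counts stand beside the shares of all genes given above, 24.8% higher and 21.1% lower at pro-B against pre-pro-B, and 11.4% higher and 11.9% lower at small pre-B against pro-B. With so few genes a list, nothing is read as particular to a list. Among 13 other chemokine receptors, 4 of 12 tested rose and 4 fell at pro-B against pre-pro-B. Ackr2 and Ackr4, which bind chemokines without signalling through G proteins, rose to 4.13 and 2.75 peaks, against 1.0 and 0.5. Ccr6 fell to 1.5 ± 1.31 peaks, against 5.0 ± 0 (adjusted p = 0.00164 for each, exact permutation test). At small pre-B against pro-B, 3 of 13 rose and 3 fell, with Ccr6 at 5.0 against 1.5 peaks and Ackr4 at 1.0 against 2.75 (adjusted p = 0.00467, exact permutation test).

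Among 9 receptors for lipids and oxysterols, 1 rose and 4 fell at pro-B against pre-pro-B, and 4 rose and 0 fell at small pre-B against pro-B. Gpr183, whose oxysterol ligand guides B cells in follicles, fell to 0.375 ± 0.518 peaks at pro-B, against 3.88 ± 0.354 at pre-pro-B, and held 3.13 ± 0.991 at small pre-B (SD, n = 8 each). P2ry10 held 2 peaks in every pre-pro-B, 0 in every pro-B and 1 in every small pre-B library. S1pr4, a relative of S1pr1, rose to 4.88 peaks at pro-B against 3.25 at pre-pro-B (adjusted p = 0.00689, exact permutation test). Among the 18 other adhesion receptors, 3 rose and 5 fell at pro-B, and 7 rose and 4 fell at small pre-B. The leukocyte integrin genes Itgam and Itgax fell to 3.88 and 1.0 peaks at pro-B, against 7.75 and 4.25 (adjusted p = 0.00164 for each, exact permutation test). Cd44, which binds hyaluronan, held 6 peaks in every pre-pro-B, 3 in every pro-B and 4 or 5 in each small pre-B library. Itgam is also among the 9 myeloid markers, and its own fall is part of their sum. Their windows held 17 to 22 peaks in pre-pro-B, 11 to 16 in pro-B and 16 to 19 in small pre-B libraries. At pro-B Elane held 2.13 peaks on average against 4.13 at pre-pro-B. Mpo, Ly6c2 and S100a9 held 0.875, 1.25 and 0.0 against 1.0, 1.5 and 0.5. Csf1r, Cebpa and S100a8 stayed at 1.13, 1.88 and 0.0, and Cebpe rose to 2.0 from 1.75. The part of such cells was not tested.

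Among 11 niche cytokine receptors, 1 rose and 3 fell at pro-B, and 3 rose and 0 fell at small pre-B. Flt3, the receptor of early progenitors for FLT3 ligand, fell to 6.63 peaks against 9.5, and Notch2 to 3.13 against 7.0 at pro-B. Tnfrsf13c, which encodes the BAFF receptor, rose to 3.5 against 2.0 (adjusted p = 0.00164 for each, exact permutation test). Among 29 regulators of homing signals, 8 rose and 6 fell at pro-B, and 8 rose and 5 fell at small pre-B. Dock2, needed for lymphocyte migration to chemokines, fell to 6.63 ± 0.744 peaks at pro-B, against 11.1 ± 0.835 at pre-pro-B. Grk2, a kinase that desensitises such receptors, rose to 8.13 at pro-B against 5.75 at pre-pro-B, and to 10.4 at small pre-B. Rgs13, a brake on chemokine receptor signalling, held 1 peak in every pro-B and 3 in every small pre-B library.

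Of 17 transcription factors linked to homing genes or to the B lineage, 10 rose and 1 fell at pro-B, with a median difference of 2.13 peaks against 0.0 over all genes. Ebf1 rose to 17.4 ± 1.6 peaks, against 4.88 ± 1.36 (SD, n = 8 each), and Pax5 to 12.8 against 7.0. Both are B-lineage factors and markers of the stages themselves. Ikzf3, which encodes Aiolos, rose to 9.13 against 3.63, and Bach2 fell to 11 to 15 peaks in a library against 18 to 23 (adjusted p = 0.00164 for each, exact permutation test). At small pre-B, 5 rose and 4 fell, with Spib at 8.5 against 5.88 and Pax5 at 9.63 against 12.8 peaks (adjusted p = 0.00467 for each, exact permutation test). Among 15 genes of niche ligands and sphingosine 1-phosphate supply, 11 could be tested, and 2 rose and 2 fell at pro-B, and 0 rose and 3 fell at small pre-B. Spns2, a sphingosine 1-phosphate transporter, rose to 7.75 at pro-B against 3.88, and Sgpl1, the lyase that breaks it down, fell to 1.88 against 5.0. For genotype, 0 genes of any of these lists passed (exact permutation tests over all genes), the lowest adjusted p of a named gene being 0.591 for Gpr183, with 6.25 ± 2.38 peaks in Mki67-/- and 7.92 ± 1.73 in WT libraries (SD, n = 12 each).

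**Figure D4:**
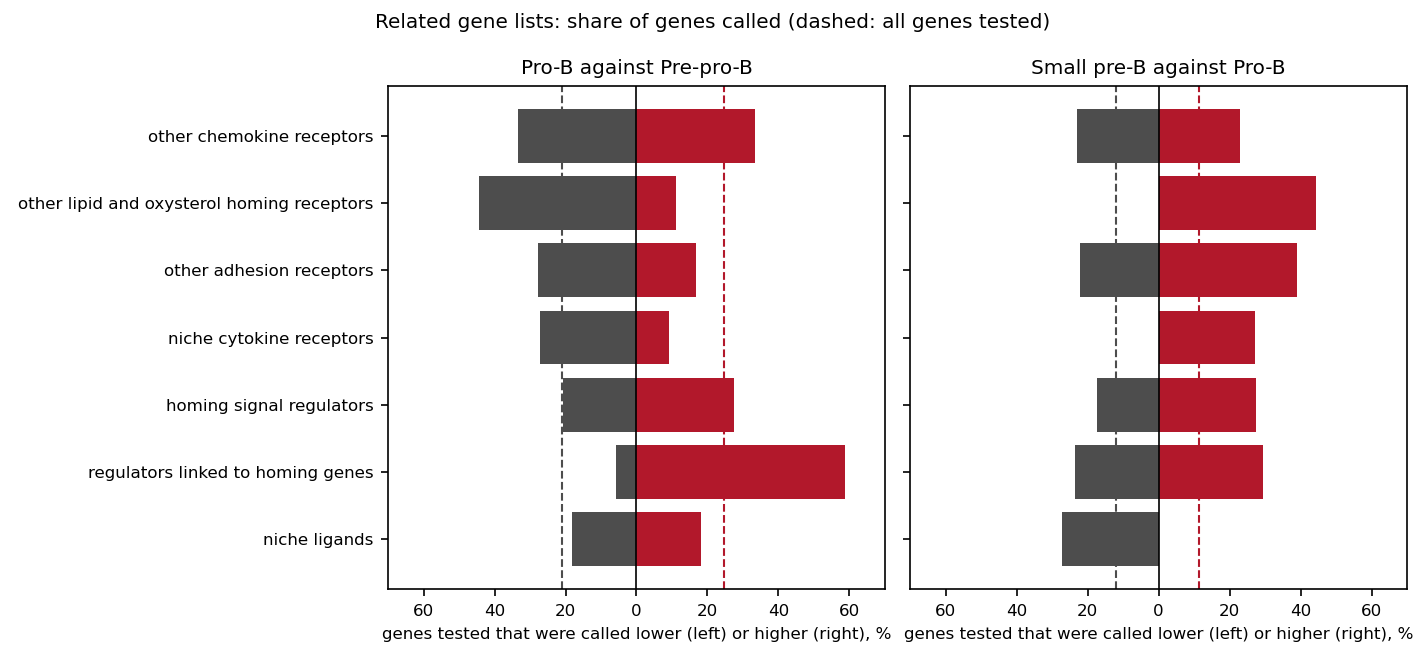
Share of the genes tested in each of 7 related lists that were called higher (right) or lower (left) at pro-B against pre-pro-B and at small pre-B against pro-B, in percent. Dashed lines give the share over all genes tested. Regulators linked to homing genes reach furthest to the right at pro-B, with 10 of 17, and lipid receptors show 4 of 9 lower at pro-B and 4 of 9 higher at small pre-B.

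Genes whose peak counts over the 24 libraries ran most like each member's were named by Pearson correlation on the 40000 strongest peaks, among genes with a mean of at least 2 peaks and farther than 1 Mb away. They were Mllt1, Rreb1 and Ccdc32 for Cxcr4 (r of 0.963, 0.938 and 0.936) and Gpam, Sgms1 and Fhl3 for Cxcr5 (0.866, 0.861 and 0.856). They were Trub1, Nsg2 and Tecpr1 for Ccr7 (0.882, 0.875 and 0.865) and Lpin3, Nudt1 and Mrm2 for S1pr1 (0.869, 0.789 and 0.789). For Klf2 they were Ehmt2, Nr4a1 and Cmklr1 (0.804, 0.794 and 0.749), and for Itga4 they were Kdm4a, Nup205 and Rab30 (0.92, 0.905 and 0.9). The points share their libraries and stages, and each was the nearest of at least 8683 genes, so these values describe shape alone. Klf2 and Nr4a1 both held the most peaks at pro-B, at 2.88 and 9.5 on average, with Nr4a1 at 7.38 at pre-pro-B and 7.0 at small pre-B.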

How the data were processed

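The series holds ATAC-seq of B-cell progenitors from mouse bone marrow, 4 libraries in each of 6 groups of stage and genotype. The build is mm10, and Trimmomatic, MACS2, deepTools, DiffBind and DESeq2 are named without versions, per the submitters' processing notes; other steps are not given in the sources used here. Each deposited list gives per entry a score, which the authors set at 10 times the −log10 q, rounded down. It also gives a fold enrichment, a ratio that the authors' caller computed at the summit against the local background. The −log10 p and −log10 q of each summit are deposited in columns of their own, and the lowest −log10 q was about 2. Each list was called on its own library, so these values serve here to rank or filter the peaks of 1 list.

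Overlapping or touching entries were merged, ranked by −log10 q, and counted over RefSeq GRCm38.p6 genes with 10 kb on both sides, an overlap of 1 bp being enough. Peaks of all libraries were joined to regions. Genes needed a peak in at least 4 libraries, and regions a peak in at least 4 and no peak in at least 4. Two-sided exact permutation tests permuted genotype within stage on the deposited lists, and stage within genotype on the 40000 strongest peaks, with Benjamini-Hochberg adjustment over all genes or regions at 0.05. The smallest p is 0.0286, 0.000408 and 5.83e-06 for 4, 8 and 12 libraries a side. Tests were checked on simulated data. Read totals were not used, so no counting interval is given.

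The named genes are the 6 members, for each list and stage step up to 4 called genes by p and then size, for genotype the 2 of smallest p, and the 3 genes most like each member. The text gives the few of these that matter. Members and lists were chosen with earlier results of these data known. Alternatives were other list lengths, a −log10 q of at least 5, windows of 2 and 50 kb, peak midpoints, covered bp, unmerged entries, no filter, a replicate block, each genotype alone, and libraries left out. Counting joined regions was added after seeing the data. Python 3.11.15, numpy 2.4.6, pandas 2.3.3 and matplotlib 3.10.9 were used.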

Additional observations from a re-analysis of the deposited data

Results flagged for a closer look

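The counts of the 6 genes were looked over for libraries far from the other 3 of their group, in 72 groups (6 genes, 6 groups, 2 list lengths), and 25 stood out. Chance gives about 1 in 20, but the counts are small whole numbers: where 3 libraries agree, any other value stands out. In 23 of the 25 the gap was 1 peak, and in 2 it was 2 peaks. Those 2 were Ccr7 in WT pre-pro-B replicate 2, with 8 deposited peaks beside 10, 10 and 10, and S1pr1 in WT small pre-B replicate 2, with 4 of the 40000 strongest beside 2, 2 and 2.

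In the deposited lists the others were Cxcr4 in WT pro-B replicate 2 (5 peaks), Cxcr5 in Mki67-/- pre-pro-B replicate 4 (8), Ccr7 in Mki67-/- small pre-B replicate 2 (7) and WT pro-B replicate 1 (8), and S1pr1 in Mki67-/- small pre-B replicate 4 (3), WT pro-B replicate 4 (3) and WT small pre-B replicate 4 (4). Klf2 stood out in Mki67-/- pre-pro-B replicate 4 (4), and Itga4 in Mki67-/- pro-B replicate 2 (3), WT pro-B replicate 1 (4) and WT small pre-B replicate 1 (5). Among the 40000 strongest they were Cxcr4 in Mki67-/- pre-pro-B replicate 1 (2) and small pre-B replicate 1 (6), Cxcr5 in Mki67-/- pre-pro-B replicate 4 (2), pro-B replicate 2 (5) and small pre-B replicate 4 (6), and Ccr7 in Mki67-/- pre-pro-B replicate 1 (2), Mki67-/- small pre-B replicate 2 (5) and WT pro-B replicate 4 (6). The last were S1pr1 in WT pre-pro-B replicate 1 (1), Klf2 in WT pro-B replicate 2 (2), and Itga4 in Mki67-/- pre-pro-B replicate 4 (3) and WT pre-pro-B replicate 3 (3). No member's genotype difference passed a test of a change between stages.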

How the results depend on the processing

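For genotype, 0 members and 0 member regions were called under each alternative run. At pro-B against pre-pro-B the 3 members called (3 to 4 with a library left out) became 2 by covered bp (Cxcr4 and Itga4, both lower) and 4 by unmerged entries (Cxcr4, Cxcr5, S1pr1 and Itga4, all lower). A count of 3 did not always hold the same genes: the deposited lists called S1pr1, Klf2 and Itga4, all lower, and the 20000 strongest peaks called Cxcr4, Cxcr5 and S1pr1, all higher. These 2 settings called 46.83% and 37.67% of all genes tested, covered bp 78.66% and unmerged entries 75.83%. With either genotype alone 0 were called at each step, since 4 against 4 libraries cannot pass after adjustment here. At small pre-B against pro-B the 2 members became 3 in the deposited lists (Cxcr4 and S1pr1 higher, Ccr7 lower). In the 20000 strongest they became 3 (Cxcr4 higher, Cxcr5 and Klf2 lower). A 2 kb window called 1 and a 50 kb window 4, all higher. Covered bp called 6 (3 higher, 3 lower) and unmerged entries 4 (3 higher, 1 lower). In this order these settings called 22.68%, 22.39%, 18.97%, 35.41%, 43.62% and 24.61% of all genes tested. With a library left out 3 members were called. At small pre-B against pre-pro-B the 4, all higher, became 2 with a 2 kb window and 2 as joined regions, all higher. Covered bp called Klf2 and Itga4, both lower. The deposited lists and a −log10 q of at least 5 each called Cxcr4 higher and Ccr7, S1pr1 and Itga4 lower. Unmerged entries called Cxcr5, Ccr7, Klf2 and Itga4, all lower. Windows of 50 kb called 5, all higher, and the 20000 strongest 4 higher and 1 lower. In this order these settings called 38.69%, 42.47%, 82.16%, 44.39%, 43.75%, 76.55%, 58.14% and 37.52% of all genes tested. With a library left out 3 to 4 were called. The 14 member regions called at pro-B (9 more often, 5 less) became 21 in the deposited lists (8 more often, 13 less) and 8 in the 20000 strongest (14 to 14 with a library left out) and the 8 at small pre-B (3 more often, 5 less) became 11 (7 more often, 4 less) and 4 (7 to 9 with a library left out). Without 3 libraries doubted in an earlier analysis of these files (Mki67-/- pre-pro-B replicate 4, Mki67-/- small pre-B replicate 1, WT small pre-B replicate 1) the counts were 4, 2 and 3 members and 14 and 7 regions. Of all genes tested, 47.36%, 22.08% and 44.22% were called without these libraries. Shares over all regions are not given for the alternatives, so these region counts are not read as a result about the members.

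Replicate numbers do not pair the samples: deviations of same-numbered libraries correlated at −0.161 to 0.094. With the replicate block the members called were 0 for genotype, 2 at pro-B against pre-pro-B, 0 at small pre-B against pro-B and 2 at small pre-B against pre-pro-B. Of all genes tested, 0%, 37.64%, 0% and 35.75% were called. The regions called were 0, 12 and 3. With 8 pairs the smallest p is 0.00781.

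Directions turned with list length and measure, and the cause was not tested. For pro-B against pre-pro-B, the differences that turned were in the deposited lists −0.375 for Cxcr5, −3.88 for S1pr1 and −1.38 for Klf2. At a −log10 q of at least 5 they were −0.125, −3.38 and −1.25. With 2 kb Klf2 gave −1.0 and with 50 kb S1pr1 gave −3.13. By covered length Cxcr4 gave −500.0 bp, and by unmerged entries Cxcr4, Cxcr5, Ccr7 and S1pr1 gave −2.75, −2.88, −2.63 and −3.0. For small pre-B against pro-B, Cxcr5 gave −1.0 in the 20000 strongest and −436.0 bp by covered length, and Klf2 gave 3.5 with 50 kb. For small pre-B against pre-pro-B, the deposited lists gave −0.75 for Cxcr5, −2.63 for Ccr7, −3.0 for S1pr1 and −2.75 for Itga4. At a −log10 q of at least 5 they were −0.625, −2.13, −2.5 and −2.0. Klf2 gave 3.13 with 50 kb. Covered length gave −369.1, −340.8 and −482.5 bp for Cxcr5, Ccr7 and Itga4, unmerged entries gave −3.13, −4.13 and −2.0, and joined regions gave −0.125 for Itga4. No region turned direction under the alternatives run.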

Other observations

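At small pre-B against pre-pro-B, the related lists moved in both directions, beside 24.2% higher and 21% lower over all genes tested. Other chemokine receptors had 3 of 13 higher and 5 lower, with Ackr3, a scavenger of CXCL12, at 3.88 ± 0.354 peaks against 2.0 ± 0, and Cx3cr1 at 2.0 ± 0 against 3.25 ± 0.463 (SD, n = 8 each, adjusted p = 0.00179 for each, exact permutation test). Adhesion receptors had 5 of 18 higher and 6 lower. Itga5, a fibronectin receptor chain, rose to 7.5 ± 1.2 peaks against 2.5 ± 1.31, Icam1 to 6.63 against 3.25, and Itgae and Pecam1 fell to 2.0 and 2.5 against 4.5 and 5.0 (adjusted p = 0.00179 for each, exact permutation test). Lipid receptors had 2 of 9 higher and 4 lower, with S1pr2 at 1 peak in every small pre-B and 2 in every pre-pro-B library. Regulators of homing signals had 9 of 29 higher and 8 lower, with Grk2 at 10.4 against 5.75 and Grk3 at 1.13 against 4.0 peaks. Regulators linked to homing genes had 11 of 17 higher and 1 lower, niche cytokine receptors 2 of 11 higher and 2 lower, and niche ligands 2 of 11 tested higher and 3 lower.

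The markers of other cells not given above had peaks at every stage. Windows of plasmacytoid dendritic cell genes held 22 to 31, 28 to 29 and 30 to 38 of the 40000 strongest peaks by stage, those of stromal genes 16 to 19, 12 to 14 and 13 to 17, and those of erythroid and megakaryocyte genes 11 to 13, 15 to 19 and 15 to 18. These sums mix directions. On average Tcf4, Irf8 and Ly6d held 14.6, 8.13 and 3.75 peaks at small pre-B, against 8.88, 3.63 and 3.0 at pre-pro-B. Siglech, Bst2 and Ccr9 held 2.38, 3.38 and 1.88, against 3.13, 5.13 and 2.38. Stromal and erythroid genes also moved both ways. Gata1 was at 0 in each stage and Lepr in each stage.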
